A study of Mus musculus with 12 samples.

Results

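The genes of the cell division cycle were followed across interleukin 17-type T cells and cells labelled ROR- of mouse strains BALB/c and B6. The set held 60 named genes, 23 listed under S phase, when DNA is copied, and 37 listed under mitosis, when the copies are parted. The list names are shorthand, and not every gene acts only in the phase that names its list. A gene entered the analysis through a probe set whose only gene symbol in the array's annotation was that gene, and the brightest probe set over the 12 arrays stood for it. This gave 58 members of 22180 genes so named, 22 of S phase and 36 of mitosis. The cyclin B1 gene Ccnb1 was listed on no probe set of the table used here, and the cyclin E2 gene Ccne2 was listed only on a probe set shared with a second gene. All 58 passed the filter on dim genes, which kept 16667 genes that read above a log2 level of 3.45 on at least 2 arrays.

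Total RNA was hybridised to 12 Affymetrix whole-transcript arrays, 1 for each sample. By the labels, 6 arrays held BALB/c cells, 3 of ROR- and 3 of iNKT17 type, and 6 held B6 cells, 2 each of ROR-, iNKT17 and gamma-delta 17 (γδ17) type. Invariant natural killer T (iNKT) cells carry a semi-invariant αβ T cell receptor for lipids, and iNKT17 cells are their interleukin 17-making subset. ROR- is the labels' name for the other cells, whose receptor the labels do not give. γδ17 cells are γδ T cells that make the same cytokine. No genotype beyond the strain, no treatment, age, sex, organ or sorting gate was given, and the extraction text names frozen tissue while the labels name cells. The labels number the arrays of a group but do not say whether they came from separate animals or pools. The spread that the p-values measure is thus that of these samples alone and could be technical. The study's stated subject is how iNKT cells of the B6 and BALB/c strains differ in transcription.

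Dividing cells switch these genes on in waves. At the entry to S phase, E2F transcription factors raise the genes that load and fire replication origins, copy DNA and supply nucleotides. In G2 and mitosis the MuvB complexes with B-Myb and FoxM1 raise the kinases, kinetochore proteins and motors that part the chromosomes. Resting T cells hold both waves low, and iNKT precursors are known to divide before they settle into long-lived, slowly dividing subsets. In bulk RNA, fewer cycling cells and less of these RNAs per cell cannot be told apart.

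The promoters of 6 members are printed because they carry the sequence elements by which these waves are usually sorted. Each is the 300 bases from 250 before to 50 after the listed RNA start, 5′ to 3′ on the gene's strand, from RefSeq on GRCm38.p6. The windows are chr8:75109259-75109558 on the plus strand for Mcm5, chr1:128359656-128359955 on the minus strand for Mcm6 and chr10:69352863-69353162 on the minus strand for Cdk1. The others are chr9:70421505-70421804 on the minus strand for Ccnb2, chr7:122159185-122159484 on the plus strand for Plk1 and chr2:172370521-172370820 on the minus strand for Aurka. Mcm5 and Mcm6 encode subunits of the replicative helicase, and capitals mark the E2F motif there. Cdk1 is the mitotic cyclin-dependent kinase, Ccnb2 its cyclin B2 partner, Plk1 polo-like kinase and Aurka the spindle-pole kinase Aurora A. In these last promoters capitals mark the cell cycle genes homology region (CHR, TTTGAA) and the CCAAT box, each on either strand.

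Mcm5: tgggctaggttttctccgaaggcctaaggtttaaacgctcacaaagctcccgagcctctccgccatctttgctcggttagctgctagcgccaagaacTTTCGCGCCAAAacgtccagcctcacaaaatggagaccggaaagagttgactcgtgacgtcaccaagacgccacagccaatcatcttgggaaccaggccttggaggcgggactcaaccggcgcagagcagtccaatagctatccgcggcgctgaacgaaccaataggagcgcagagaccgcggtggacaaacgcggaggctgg
Mcm6: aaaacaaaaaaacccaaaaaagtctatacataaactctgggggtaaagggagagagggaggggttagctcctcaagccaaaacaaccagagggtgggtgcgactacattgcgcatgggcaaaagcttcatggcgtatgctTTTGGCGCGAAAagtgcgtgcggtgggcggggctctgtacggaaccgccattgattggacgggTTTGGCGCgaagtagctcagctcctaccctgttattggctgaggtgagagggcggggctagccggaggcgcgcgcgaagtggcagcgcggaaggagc
Cdk1: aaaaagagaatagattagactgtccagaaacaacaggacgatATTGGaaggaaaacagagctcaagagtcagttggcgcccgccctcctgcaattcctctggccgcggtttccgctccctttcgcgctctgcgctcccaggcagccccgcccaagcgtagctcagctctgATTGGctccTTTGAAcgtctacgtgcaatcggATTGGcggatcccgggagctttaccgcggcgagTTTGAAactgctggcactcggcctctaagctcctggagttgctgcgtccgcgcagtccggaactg
Ccnb2: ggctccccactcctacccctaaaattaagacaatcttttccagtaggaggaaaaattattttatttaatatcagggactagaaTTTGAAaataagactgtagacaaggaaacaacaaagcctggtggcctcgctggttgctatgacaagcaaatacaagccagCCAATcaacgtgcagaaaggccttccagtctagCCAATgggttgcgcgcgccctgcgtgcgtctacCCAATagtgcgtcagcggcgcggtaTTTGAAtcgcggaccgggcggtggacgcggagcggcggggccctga
Plk1: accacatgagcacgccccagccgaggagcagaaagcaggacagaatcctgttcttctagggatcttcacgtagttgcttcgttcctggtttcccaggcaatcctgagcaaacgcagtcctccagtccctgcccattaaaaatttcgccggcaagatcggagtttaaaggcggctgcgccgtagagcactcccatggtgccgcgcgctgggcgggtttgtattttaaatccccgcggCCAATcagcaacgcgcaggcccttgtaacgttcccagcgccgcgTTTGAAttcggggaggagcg
Aurka: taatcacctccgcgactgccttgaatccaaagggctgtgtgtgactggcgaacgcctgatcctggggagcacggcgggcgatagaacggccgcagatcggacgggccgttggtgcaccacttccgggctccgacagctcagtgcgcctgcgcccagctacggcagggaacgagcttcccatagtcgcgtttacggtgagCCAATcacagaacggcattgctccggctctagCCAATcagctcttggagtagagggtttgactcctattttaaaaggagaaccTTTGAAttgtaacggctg

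The first capitals of Mcm5 hold TTTCGCGC at -153 from the start and, overlapping it, GCGCCAAA at -149, which is the motif on the other strand. Mcm6 carried 3 matches, TTTGGCGC at -110 and -47 and GCGCGAAA at -106. Cdk1 held TTTGAA at -71 and -15 with ATTGG, the CCAAT box read on the other strand, at -208, -80 and -48. Ccnb2 held TTTGAA at -167 and 4, with CCAAT at -87, -54 and -21. Plk1 and Aurka each had 1 TTTGAA, just after the start at 30 and 32. Cdk1 also held 1 E2F match, and Mcm5 and Mcm6 held CCAAT boxes, which are left in lower case.

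RefSeq's table had a promoter for 49 of the 60 listed genes, 18 of S phase and 31 of mitosis, and the search took TTTCCCGC, TTTCGCGC, TTTGCCGC or TTTGGCGC as E2F. An E2F motif stood in 7 of the 18 S phase promoters (38.9%) and in 2 of the 31 mitotic ones (6.45%). It stood in 2.6% of all 27025 promoters of the table and in 3.29% of those of protein-coding genes. The CHR was distributed the other way, in 22 mitotic promoters (71%) and 3 of S phase (16.7%), against 20.2% of all promoters. CCAAT boxes were about as frequent in both lists, in 72.2% of S phase and 71% of mitotic promoters, against 41.1% of all. A CHR and a CCAAT box stood in the same window in 18 mitotic promoters (58.1%), 3 of S phase (16.7%) and 7.97% of all. Overlapping matches were counted separately, a match is a description of letters and no measured binding, and the genome is that of the reference strain.

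The labelled cell types were checked against marker genes. The mean log2 level of 7 type 17 markers lay between 8.59 and 9.59 on the iNKT17 and γδ17 arrays and between 5.22 and 5.50 on the B6 ROR- arrays. The BALB/c ROR- arrays read 5.28, 6.79 and 5.41, so replicate 2 stood above its group. The mean of 8 type 1 and NK-like markers was 7.70 to 9.40 on the ROR- arrays and 4.85 to 5.33 on the iNKT17 arrays. On γδ17 replicates 1 and 2 it was 6.45 and 5.11. All T cell groups carried Cd3e, a chain of the T cell receptor complex, at 11.09 to 11.75. On γδ17 replicate 1 the mean of 10 neutrophil markers was 5.36 against 3.24 to 3.36 on the other arrays, with S100a8 at 9.30 there and at most 2.44 elsewhere. The same array had the highest mean of 12 immature thymocyte markers, 5.82 against 4.36 to 5.29, and of 14 macrophage, monocyte and dendritic markers, 4.72 against 4.19 to 4.47. Single genes were highest there for 8 of the 10 neutrophil, 6 of the 12 thymocyte and 7 of the 14 macrophage, monocyte and dendritic markers. Of these lists 2 neutrophil and 2 thymocyte genes, with 3 of 8 B cell genes, read under 3.45 on every array. The array medians ran from 4.10 to 4.30, arrays of a group correlated at 0.973 to 0.986 across probe sets, and 0 pairs held identical values.

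The means of S phase and of mitotic members were both highest on B6 iNKT17 replicate 2. Taken as the mean deviation of each member from its own 12-array mean, S phase members stood at -0.10, -1.21 and -1.20 on BALB/c ROR- replicates 1 to 3 and mitotic members at 0.03, -2.04 and -1.74. In BALB/c iNKT17 the S phase values were -1.07, 0.57 and -1.04 and the mitotic values -1.90, 0.76 and -0.90. In each BALB/c group 1 array, ROR- replicate 1 and iNKT17 replicate 2, thus stood far above the others of its group. In B6 ROR- the S phase values were -0.26 and 0.75 and the mitotic values -0.02 and 1.07. B6 iNKT17 gave 0.56 and 1.56 for S phase and 1.10 and 1.80 for mitosis, and γδ17 gave 0.84 and 0.60 for S phase and 0.71 and 1.13 for mitosis. The BALB/c ranges reached into those of B6: BALB/c iNKT17 replicate 2 read above B6 ROR- replicate 1 for 58 of 58 members.

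**Figure D1:**
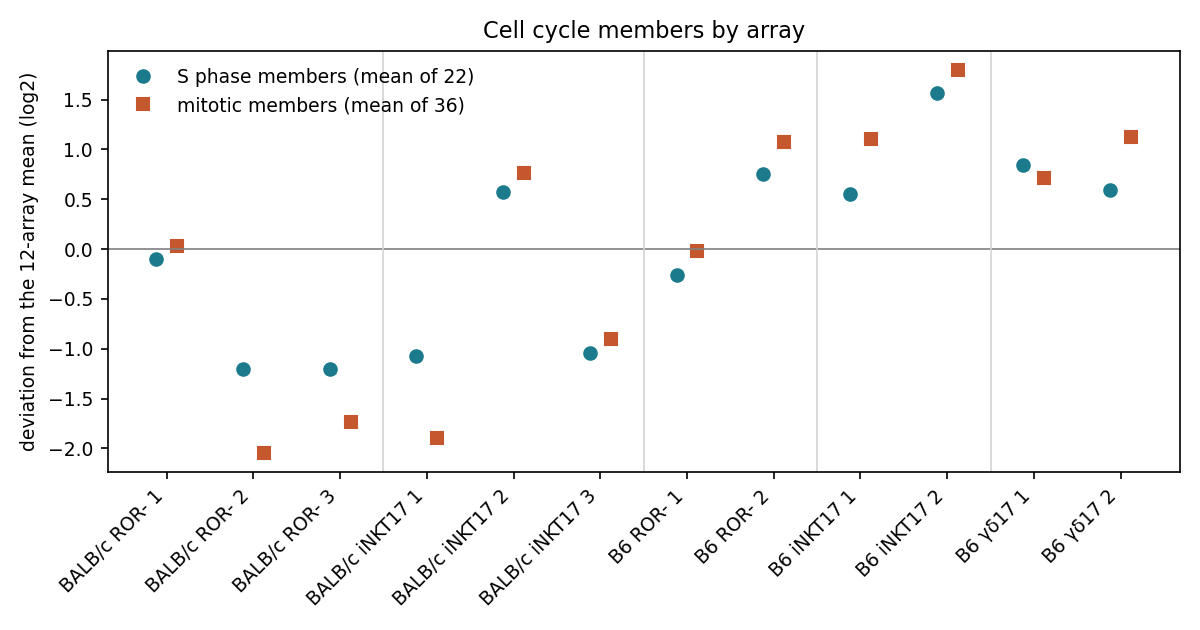
Mean deviation from the 12-array mean (log2, y axis) of the 22 S phase members (circles) and the 36 mitotic members (squares) on each of the 12 arrays, with vertical lines between groups. BALB/c ROR- replicate 1 (-0.10 and 0.03) and BALB/c iNKT17 replicate 2 (0.57 and 0.76) stand above the other BALB/c arrays, which lie between -2.04 and -0.90.

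The members shared the highest array but not the lowest. B6 iNKT17 replicate 2 was the highest of the 12 arrays for 58 of 58 members, and the lowest was 1 of 4 BALB/c arrays, ROR- replicates 2 and 3 and iNKT17 replicates 1 and 3. BALB/c iNKT17 replicate 2 was the highest BALB/c array for 57, and BALB/c ROR- replicate 1 the highest of its group for 57. Mitotic members covered the wider span. Their list mean ranged over 3.84 log2 units and that of S phase over 2.77, a ratio of 1.39, and single members spanned a median of 4.07 units (2.36 to 5.60) in mitosis and 3.03 units (1.19 to 4.82) in S phase. By group, the S phase mean was -0.84 ± 0.64 (SD, n = 3) in BALB/c ROR-, -0.51 ± 0.94 (n = 3) in BALB/c iNKT17, 0.24 ± 0.72 (n = 2) in B6 ROR-, 1.06 ± 0.71 (n = 2) in B6 iNKT17 and 0.72 ± 0.17 (n = 2) in γδ17. The mitotic means, in the same order and with the same n, were -1.25 ± 1.12, -0.68 ± 1.34, 0.52 ± 0.77, 1.45 ± 0.49 and 0.92 ± 0.29. From low to high the order was BALB/c ROR-, BALB/c iNKT17, B6 ROR-, γδ17 and B6 iNKT17 for both lists. Each step in it was smaller than the larger SD of the groups beside it, except for the step from γδ17 to B6 iNKT17 in mitosis.

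The replicative helicase and its loaders are the first of the S phase members. Mcm5 read 6.68, 4.92 and 5.12 on the BALB/c ROR- arrays, 5.26, 7.77 and 5.0 on BALB/c iNKT17, 6.19 and 7.74 on B6 ROR-, 7.16 and 8.49 on B6 iNKT17, and 7.77 and 7.30 on B6 γδ17, replicates in order. BALB/c iNKT17 replicate 2 stood among the B6 arrays while the other BALB/c iNKT17 arrays sat near the bottom, so the strains overlapped in iNKT17 and, through ROR- replicate 1, in ROR- cells. Mcm6, of the same ring, read 8.25, 7.09 and 7.26 on the BALB/c ROR- arrays, 7.19, 8.90 and 6.95 on BALB/c iNKT17, 8.35 and 9.18 on B6 ROR-, 9.08 and 9.90 on B6 iNKT17, and 9.59 and 9.07 on B6 γδ17. Within each cell type the strains did not overlap in Mcm6, but BALB/c iNKT17 replicate 2 lay above B6 ROR- replicate 1. The origin loader Cdc6 averaged 5.08 ± 1.39 (SD, n = 3) in BALB/c iNKT17 and 7.02 ± 0.98 (n = 2) in B6 iNKT17, and Mcm2 averaged 6.86 ± 1.02 and 8.33 ± 0.80.

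Of the enzymes that supply nucleotides, Rrm2, the small subunit of ribonucleotide reductase, moved most. It read 8.28, 5.70 and 6.18 on the BALB/c ROR- arrays, 6.49, 9.05 and 6.82 on BALB/c iNKT17, 8.59 and 9.63 on B6 ROR-, 9.89 and 10.46 on B6 iNKT17, and 9.55 and 9.89 on B6 γδ17. All BALB/c arrays lay under the B6 arrays of the same cell type. Tyms, thymidylate synthase, averaged 6.20 ± 0.56 (SD, n = 3) in BALB/c iNKT17 and 7.25 ± 0.35 (n = 2) in B6 iNKT17. Among the regulators of S phase, the repressor E2f8 read 5.77, 3.42 and 4.33 on the BALB/c ROR- arrays, 4.19, 6.69 and 4.70 on BALB/c iNKT17, 5.81 and 7.15 on B6 ROR-, 7.27 and 8.24 on B6 iNKT17, and 7.22 and 7.25 on B6 γδ17. Within each cell type it too did not overlap between strains, and BALB/c ROR- replicate 2 lay under the 3.45 level there. The activator E2f1 averaged 4.84 ± 0.35 and 5.73 ± 0.85 in iNKT17 of BALB/c (SD, n = 3) and B6 (n = 2), and Ccne1, cyclin E1, 5.0 ± 0.55 and 6.11 ± 0.60.

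Pcna, the sliding clamp of the DNA polymerases, differed from the rest in how little it moved. It read 10.26, 10.09 and 9.81 on the BALB/c ROR- arrays, 10.04, 10.32 and 9.58 on BALB/c iNKT17, 10.14 and 10.60 on B6 ROR-, 10.37 and 10.77 on B6 iNKT17, and 10.44 and 10.40 on B6 γδ17. Its 12 arrays spanned 1.19 log2 units, the narrowest of the members, and BALB/c and B6 ROR- overlapped while the iNKT17 arrays did not. Ccne1 (1.96), Mcm4 (1.96) and E2f1 (1.83) also spanned less than most. At the other end of S phase, E2f8 spanned 4.82 and Rrm2 4.76 units.

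In mitosis the proliferation marker Mki67, which coats mitotic chromosomes, read 8.99, 6.51 and 7.14 on the BALB/c ROR- arrays, 7.14, 9.65 and 8.09 on BALB/c iNKT17, 8.70 and 9.68 on B6 ROR-, 9.82 and 10.29 on B6 iNKT17, and 9.82 and 9.96 on B6 γδ17. The iNKT17 arrays of the strains did not overlap, the ROR- arrays did, and BALB/c iNKT17 replicate 2 stood just under the lower B6 iNKT17 array. Cdk1 read 7.27, 4.73 and 5.0 on the BALB/c ROR- arrays, 5.74, 8.45 and 6.44 on BALB/c iNKT17, 7.38 and 8.66 on B6 ROR-, 8.77 and 9.55 on B6 iNKT17, and 8.30 and 8.73 on B6 γδ17. Neither cell type overlapped between strains in Cdk1. Ccna2, cyclin A2, covered a wider span and read 8.35, 4.71 and 5.69 on the BALB/c ROR- arrays, 4.71, 9.02 and 6.94 on BALB/c iNKT17, 8.23 and 9.29 on B6 ROR-, 9.56 and 10.07 on B6 iNKT17, and 9.32 and 9.53 on B6 γδ17. Here ROR- overlapped and iNKT17 did not. The cyclin B2 gene Ccnb2 averaged 7.28 ± 1.90 (SD, n = 3) in BALB/c iNKT17 and 9.47 ± 0.38 (n = 2) in B6 iNKT17, and Top2a, the enzyme that untangles chromosomes, 7.58 ± 1.52 and 9.81 ± 0.40.

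The chromosomal passenger complex, which corrects the attachment of chromosomes to the spindle, was represented by its kinase Aurkb, its survivin subunit Birc5 and its borealin subunit Cdca8. Birc5 read 7.46, 4.39 and 4.57 on the BALB/c ROR- arrays, 3.47, 8.07 and 6.06 on BALB/c iNKT17, 7.25 and 8.30 on B6 ROR-, 8.22 and 9.0 on B6 iNKT17, and 7.84 and 8.21 on B6 γδ17. BALB/c iNKT17 replicate 1 was the lowest of all 12 arrays and replicate 2 of the same group was close to the B6 iNKT17 arrays. Aurkb averaged 6.61 ± 0.90 (SD, n = 3) and 8.45 ± 0.57 (n = 2) in BALB/c and B6 iNKT17. The checkpoint kinase Bub1 averaged 5.04 ± 1.57 and 7.75 ± 0.48 in the same groups, and Plk1 6.10 ± 1.23 and 8.16 ± 0.51. Plk4, the kinase that starts centriole duplication, read 5.97, 5.10 and 5.12 on the BALB/c ROR- arrays, 4.92, 6.58 and 5.46 on BALB/c iNKT17, 6.18 and 7.15 on B6 ROR-, 7.08 and 7.74 on B6 iNKT17, and 7.04 and 7.24 on B6 γδ17. It did not overlap between the strains in either cell type.

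**Figure D2:**
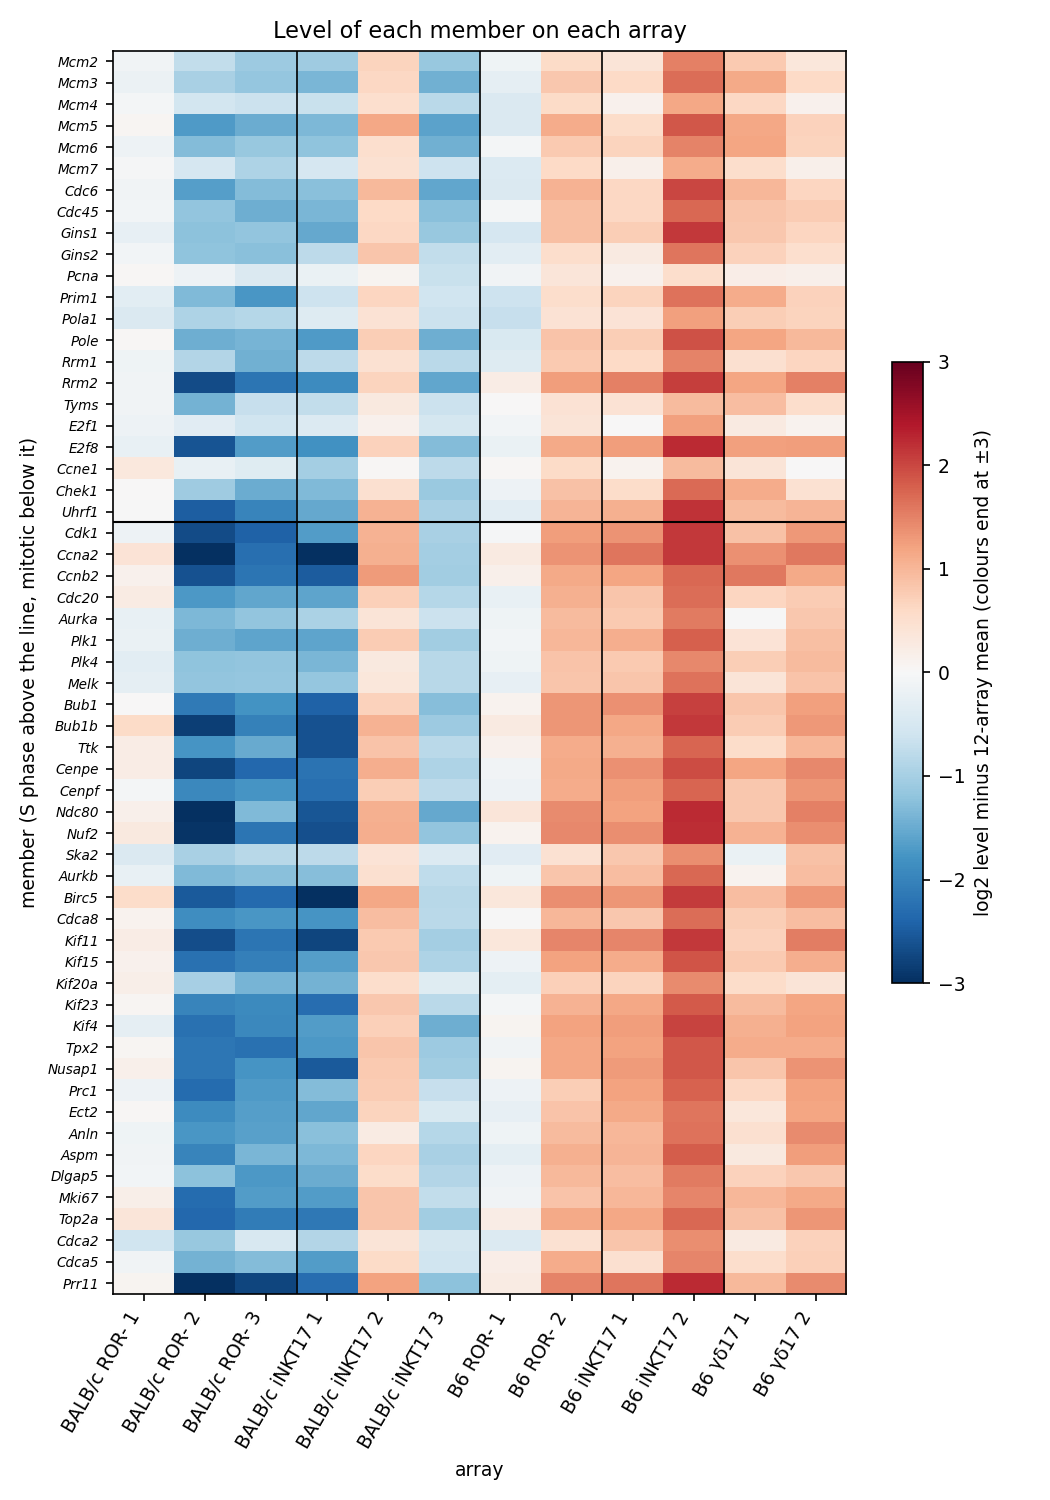
Log2 level of each of the 58 members (rows, S phase above the line) on each of the 12 arrays (columns) minus the member's own 12-array mean; red is above it, blue below it, and colours end at ±3. B6 iNKT17 replicate 2 is highest for all 58 members, and Pcna is the palest row with a span of 1.19 log2 units.

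Members varied far more within groups than other genes did, and they varied together. The residual SD left after fitting the 5 group means had a median of 0.908 log2 units over the 58 members, against 0.180 over all 16667 genes tested. It was 1.03 for mitotic and 0.741 for S phase members. The residual SD of 57 members, all but Pcna, lay above 0.404, the 95th percentile of all genes. Birc5 (1.58), Ccna2 (1.56) and the kinetochore subunit Ndc80 (1.44) had the largest values, and Pcna (0.29), E2f1 (0.41) and Ccne1 (0.45) the smallest. A single component held 92.8% of the members' variance within groups, against 35.4% for all genes. Each member's deviations from its group means correlated with the mean of the other members at 0.692 to 0.993 (median 0.915) in S phase and 0.826 to 0.996 (median 0.973) in mitosis, over 12 arrays that leave 7 degrees of freedom; these are descriptions, since the points share arrays. On 4 arrays every one of the 58 members lay above its group mean: BALB/c ROR- replicate 1, BALB/c iNKT17 replicate 2, B6 ROR- replicate 2 and B6 iNKT17 replicate 2.

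Markers of dividing cell types from outside these populations were read on the same arrays. The mean of the 12 immature thymocyte markers was 5.21, 5.29 and 5.24 on BALB/c ROR-, 4.95, 4.77 and 4.87 on BALB/c iNKT17, 5.12 and 5.07 on B6 ROR-, and 4.79 and 4.68 on B6 iNKT17. In each of these groups the array with the highest members had the lowest value. The mean of the 4 erythroid markers measured was 5.15, 5.07 and 5.11 on BALB/c ROR-, 4.99, 5.23 and 5.03 on BALB/c iNKT17, 4.95 and 4.96 on B6 ROR-, and 5.11 and 5.40 on B6 iNKT17. It was highest on the array with the highest members in all these groups, in B6 ROR- only by 4.96 against 4.95. Of the 11 listed genes only these 4 had a probe set. Among them Tfrc was highest on that array in each group, at 7.96 against 7.18 and 7.34 in BALB/c iNKT17. In B6 iNKT17 Tfrc read 8.55 against 7.58. Klf1 was highest on that array in none of the groups, and read 3.72 against 3.76 and 3.78 in BALB/c iNKT17. Over the 12 arrays Tfrc read 6.87 to 8.55 and Klf1 only 3.59 to 4.06. The rise of the erythroid mean in iNKT17 thus rested largely on Tfrc, and the mean by itself is no measure of erythroid cells. Whether erythroid RNA or RNA quality has a part in the members' spread was not tested.

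**Figure D3:**
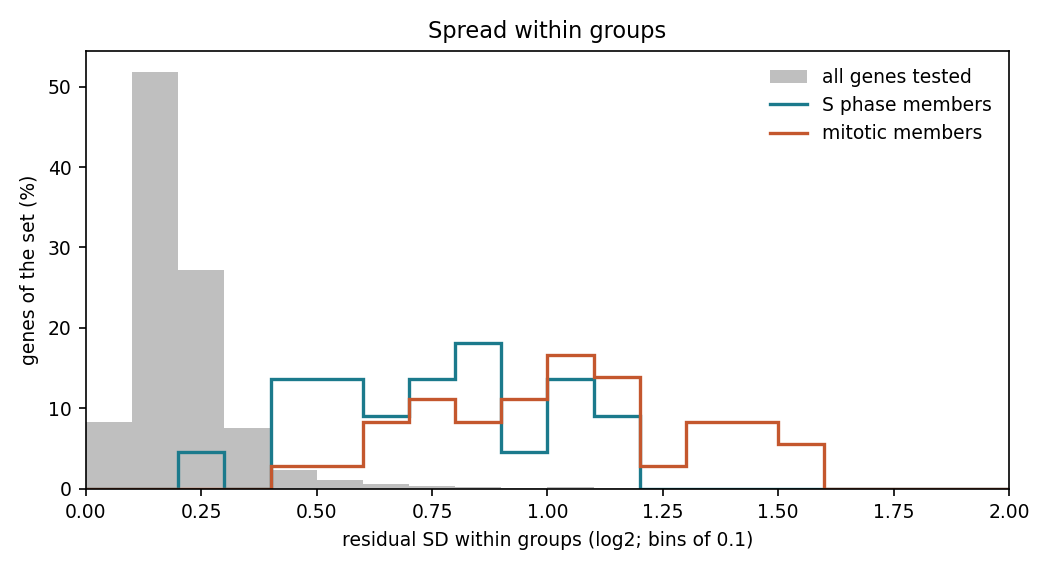
Share of genes (%, y axis) by residual SD within groups (log2, x axis, bins of 0.1) for all 16667 genes tested (grey), the 22 S phase members and the 36 mitotic members (lines). The members lie to the right of most genes, with medians of 0.741 and 1.03 against 0.180; values above 2 are not drawn.

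The comparison of strains asked how iNKT17 and ROR- cells of BALB/c and B6 mice differ. In iNKT17 cells all 58 members had a lower mean in BALB/c, with a median difference of -1.88 log2 units (-1.62 in S phase and -2.14 in mitosis, against 0.03 over all genes). Of the 58, 0 passed limma's threshold, an adjusted p of 0.05 by Benjamini-Hochberg over all genes, against 1.48% of all genes; 56 of 58 had an unadjusted p under 0.05 with the lower mean in BALB/c, as had 6.53% of all genes. The adjusted p-values ran from 0.0944 to 0.428. The arrays of the strains did not overlap for 46 members, all lower in BALB/c, while 13.8% of all genes were lower without overlap. The members varied together within groups, so counts of members here and in the comparisons that follow are not counts of independent readings. The largest differences were those of Ccna2 (-2.92 ± 1.12, SE; limma adjusted p = 0.286) and of the spindle motor Kif11 (-2.80 ± 0.95; 0.218), and the smallest those of Pcna (-0.59 ± 0.23; 0.288) and Mcm7 (-0.84 ± 0.41; 0.428). Mki67 stood at -1.76 ± 0.73, Cdk1 at -2.28 ± 0.82 and Mcm2 at -1.47 ± 0.52.

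The count of calls in iNKT17 turned on 1 array. Without BALB/c iNKT17 replicate 2, the array on which members stood high, 36 of 58 members passed limma's threshold, all lower in BALB/c. They were 12 of S phase and 24 of mitosis, and 3.18% of all genes passed in that fit. The medians were then -2.20 in S phase and -2.86 in mitosis. Without B6 iNKT17 replicate 1 the count was 1 (0.648% of all genes), and without any other single array it was 0.

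**Figure D4:**
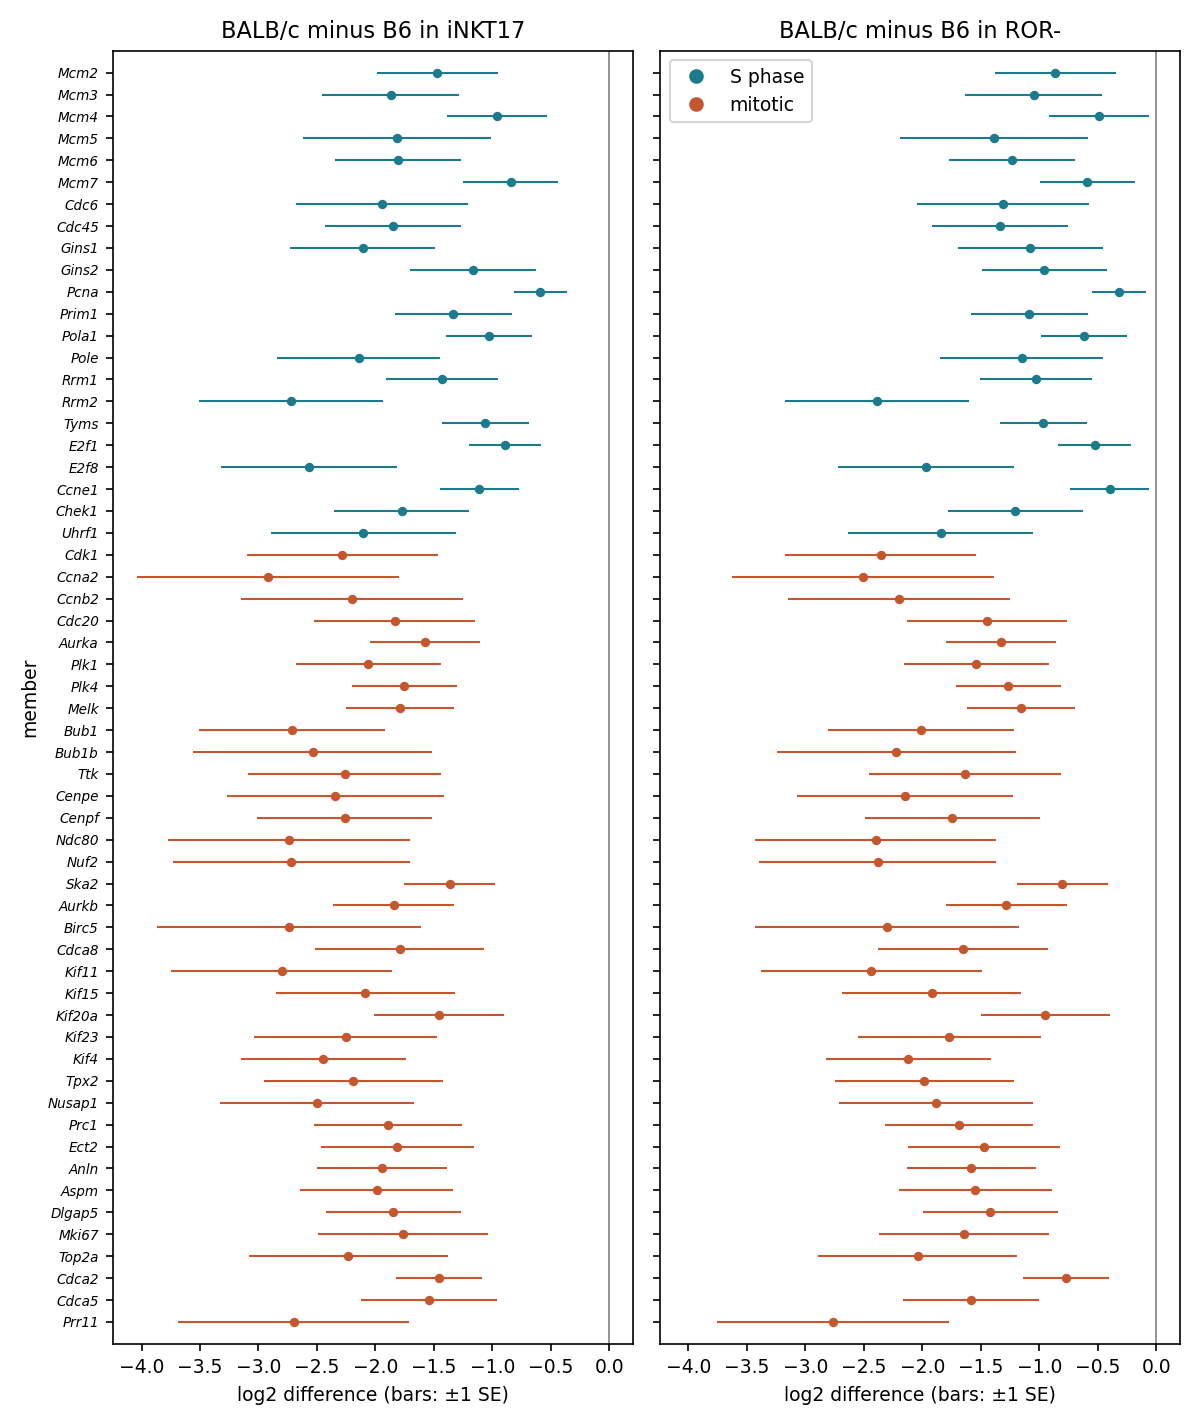
BALB/c minus B6 difference (log2, x axis) of each S phase and mitotic member (rows) in iNKT17 and in ROR- cells, as points with bars of 1 SE from the limma fit; the vertical line is 0. All points lie left of 0, from -0.59 (Pcna) to -2.92 (Ccna2) in iNKT17.

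In ROR- cells the members again had lower means in BALB/c, 58 of 58, with a median difference of -1.51 (-1.06 in S phase and -1.71 in mitosis). By limma 0 of 58 passed, against 1.22% of all genes, and the adjusted p-values ran from 0.234 to 0.690. An unadjusted p under 0.05 was reached by 35 members, 29 of them mitotic, and by 6.72% of all genes in that direction. The arrays did not overlap for 22 members, against 12.5% of all genes lower without overlap. Cdk1 stood at -2.36 ± 0.82 (SE), Rrm2 at -2.39 ± 0.79, Mki67 at -1.64 ± 0.73 and Pcna at -0.32 ± 0.23. Without BALB/c ROR- replicate 1 the count was 1, a share near the 1.55% of all genes called there, and without any other array 0.

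Averaging the strain difference over iNKT17 and ROR- cells, a comparison added after these values were seen, used 6 BALB/c and 4 B6 arrays. In it 18 of 58 members fell in BALB/c and 0 rose, while 4.58% of all genes passed and 2.79% fell. The median over the members was -1.64 (-1.34 in S phase and -1.98 in mitosis), and all 58 had an unadjusted p under 0.05, as had 10.3% of all genes in that direction. In S phase 3 of 22 passed by limma: Rrm2 (-2.56 ± 0.56, SE; adjusted p = 0.0248), E2f8 (-2.27 ± 0.53; 0.0345) and Mcm6 (-1.52 ± 0.38; 0.0452). None of the polymerase and clamp genes Pcna, Prim1, Pola1 and Pole did.

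Of the mitotic members 15 of 36 passed. Among them were the kinases Plk4 (-1.51 ± 0.32; adjusted p = 0.0218 by limma), Plk1 (-1.80 ± 0.44), Aurka (-1.45 ± 0.33) and Aurkb (-1.56 ± 0.37), while the checkpoint kinases Bub1b (-2.38 ± 0.72; 0.0902) and Ttk (-1.95 ± 0.58; 0.0856) did not pass. The motors Kif4 (-2.28 ± 0.50; 0.0252), which compacts chromosome arms, and Kif11 (-2.62 ± 0.67), which pushes spindle poles apart, also passed. So did Cdk1 (-2.32 ± 0.58), the checkpoint kinase Bub1 (-2.36 ± 0.56) and the microtubule-binding Ska2 (-1.08 ± 0.28). Of the genes of spindle and cytokinesis, Prc1 (-1.79 ± 0.45), which bundles the central spindle, Anln (-1.76 ± 0.39), which scaffolds the cleavage furrow, and Dlgap5 (-1.63 ± 0.41), which stabilises spindle fibres, passed. The rest were Melk (-1.47 ± 0.33), a kinase of dividing cells, Cdca2 (-1.11 ± 0.26), which brings a phosphatase to chromatin, and Prr11 (-2.73 ± 0.70).

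Several anchors of proliferation had differences of similar size and did not pass. Ccna2 stood at -2.71 ± 0.79 (adjusted p = 0.0797 by limma), Birc5 at -2.52 ± 0.80 (0.103), Mki67 at -1.70 ± 0.51 (0.0880) and Top2a at -2.14 ± 0.60 (0.0704). The count of 18 turned on the settings and on single arrays. It was 44 with array weights (6.95% of all genes) and 11 with no filter on dim genes (3.22%). With only the groups compared in the fit it was 10 (4.21%), and with trended robust eBayes 1 (4.07%). With the replicate number as a block it was 0 (2.23%). Leaving out an array on which BALB/c members stood high raised it. Without BALB/c iNKT17 replicate 2 it was 54 (6.69% of all genes) and without BALB/c ROR- replicate 1 it was 47 (6.51%). It was 0 when replicate 3 of either BALB/c group, or replicate 2 of B6 iNKT17 or of B6 ROR-, was left out (1.73% to 3.49%). It was 1 when iNKT17 replicate 1 (2.72%) or ROR- replicate 2 (3.25%) of BALB/c was left out. It was 10 without either γδ17 array (4.21%), 8 without B6 iNKT17 replicate 1 (3.52%) and 15 without B6 ROR- replicate 1. The direction was lower in BALB/c for 58 of 58 members under each of 21 settings, the reported one included. The filters on dim genes, the eBayes setting and omission of a γδ17 array leave these differences unchanged, so they could not turn a sign. Since 1 component held 92.8% of the members' variance within groups, their shared direction is not 58 independent readings.

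A second probe set of the same gene gave a further reading for 3 members. For Rrm2 it followed the first (r = 0.991 over 12 arrays) with an iNKT17 strain difference of -2.52 against -2.72. For Pole, the leading-strand polymerase, r was 0.969 and the difference -0.68 against -2.14. For Ska2 the dimmer probe set followed less closely (r = 0.682), with a difference of -0.31 against -1.36. Each of the other members rests on 1 probe set.

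The comparison of cell types asked what sets iNKT17 apart from ROR- cells. Averaged over the strains, 57 of 58 members had the higher mean in iNKT17, with a median difference of 0.69 (0.56 in S phase and 0.73 in mitosis), but 0 passed limma's threshold, against 12.3% of all genes. An unadjusted p under 0.05 was reached by 5, against 23.7% of all genes: Prim1 (1.07 ± 0.35, SE), the primase subunit, Pola1, Cdca2, Prc1 (1.08 ± 0.45) and Ska2. The lowest adjusted p was 0.0770, that of Prim1. Cdk1 (1.18 ± 0.58) and Uhrf1 (1.13 ± 0.56), which guides maintenance methylation, had the largest differences, and Pcna (0.06 ± 0.16) and Ccne1 (-0.14 ± 0.24) the lowest. The count became 2 without BALB/c ROR- replicate 1 (12.3% of all genes) or without B6 ROR- replicate 2 (10.1%). It became 1 without BALB/c iNKT17 replicate 1 (10.8%).

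Within BALB/c, 56 of 58 members had the higher mean in iNKT17 (median 0.48), and 0 passed at either an adjusted p (6.97% of all genes) or an unadjusted p under 0.05 (17.9%) by limma. Cdk1 (1.21 ± 0.73, SE) and Prr11 (1.12 ± 0.88) were highest, Ccne1 (-0.50 ± 0.30) and Pcna (-0.07 ± 0.20) lowest. The direction there followed 1 array: without BALB/c iNKT17 replicate 2, 40 of 58 members had the lower mean in iNKT17. Within B6 all 58 were higher in iNKT17 (median 0.90), 0 passed (5.99% of all genes), and 3 had an unadjusted p under 0.05 (16% of all genes): Pola1, Cdca2 and Ska2. The B6 arrays did not overlap for 27 members, 22 of them mitotic, against 22.5% of all genes higher without overlap. E2f8 (1.28 ± 0.82) and Uhrf1 (1.26 ± 0.87) were highest, Pcna (0.20 ± 0.25) and Ccne1 (0.22 ± 0.37) lowest.

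The difference between the strains in that cell type difference was tested as an interaction. No member passed by limma, 0 of 58 at an adjusted p (0.084% of all genes) and 0 at an unadjusted p under 0.05 (4.01%). The median was -0.41, and 54 of 58 were negative, that is, with the larger iNKT17 excess in B6. Gins1 (-1.03 ± 0.88, SE), a helicase subunit, and Pole (-0.99 ± 0.99) were lowest, and Cdk1 (0.07 ± 1.16) and Prr11 (0.06 ± 1.40) highest. This direction turned on several single arrays. Only 18 of 58 were negative without B6 ROR- replicate 1 and 24 without BALB/c ROR- replicate 1. The number was 27 without BALB/c iNKT17 replicate 1 and 29 without B6 iNKT17 replicate 2.

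γδ17 cells, which share the B6 arrays of the other comparisons, lay between B6 ROR- and B6 iNKT17. iNKT17 exceeded γδ17 with a median of 0.46 over the members, 57 of 58 higher, and 0 passed by limma at an adjusted p (0.168% of all genes) or an unadjusted p under 0.05 (8.5%). Arrays did not overlap for 19 members, against 20.3% of all genes higher without overlap. Aurkb (0.81 ± 0.57, SE) and Plk1 (0.79 ± 0.68) were highest, Tyms (-0.03 ± 0.41, which turned to 0.087 when arrays were centred on their medians) and Ccnb2 (0.09 ± 1.04) lowest. Without B6 iNKT17 replicate 2, 22 of 58 were lower in iNKT17. γδ17 exceeded ROR- with a median of 0.43, 55 of 58 higher, and 0 passed at an adjusted (6.02% of all genes) or unadjusted p under 0.05 (18.1%). The arrays did not overlap for 8, against 23.8% of all genes. Prim1 (0.94 ± 0.55) and Pole (0.87 ± 0.76) were highest, Ccne1 (-0.11 ± 0.37) and Cdca5 (-0.03 ± 0.64), the cohesin protector sororin, lowest. Without B6 ROR- replicate 1, 41 of 58 were lower in γδ17.

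The lists did not always move together between arrays of a group. In BALB/c iNKT17, replicates 1 and 3 had S phase means of -1.07 and -1.04 but mitotic means of -1.90 and -0.90, so that S phase minus mitosis was 0.83 and -0.14. In γδ17 that value was 0.13 on replicate 1 and -0.53 on replicate 2. In B6 ROR- all 58 members read higher on replicate 2 than on replicate 1, by a median of 1.03 in S phase and 1.08 in mitosis. In B6 iNKT17 all 58 were again higher on replicate 2, by 1.06 and 0.67. In γδ17, 18 of 22 S phase members were higher on replicate 1 and 33 of 36 mitotic members were higher on replicate 2, with median replicate 2 minus replicate 1 differences of -0.28 and 0.42. The checkpoint kinase Chek1 (-0.66) and Mcm3 (-0.55) were lowest, and Ska2 (1.07), the spindle pole gene Aspm (0.96) and Anln (0.94) highest. Ccnb2 (-0.44) was a mitotic exception. These differences between single arrays have no test, and γδ17 replicate 1 is the array with the high neutrophil (5.36), thymocyte (5.82) and macrophage (4.72) marker means, whose part in them was not tested.

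**Figure D5:**
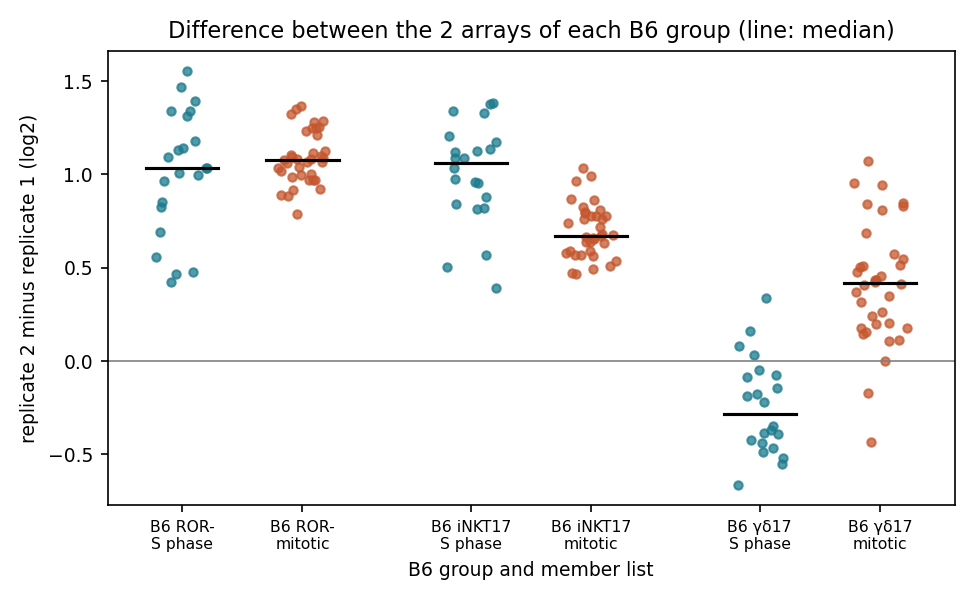
Replicate 2 minus replicate 1 (log2, y axis) of each S phase and mitotic member in the 3 B6 groups of 2 arrays, 1 point a gene, with the median as a line. In ROR- and iNKT17 all points lie above 0, and in γδ17 the S phase median is -0.28 and the mitotic median 0.42.

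Other genes of the pathway, outside the members, were counted from the lists for replication and mitosis. Of 33 other replication genes tested of 36 listed, 5 fell in BALB/c in the strain mean by limma, while 2.79% of all genes fell, and 33 had the lower mean (median -0.73). The 5 were Clspn (-1.76) and Tipin (-1.05), which guard stalled forks, the origin subunit Orc6 (-1.22), thymidine kinase Tk1 (-0.79) and the clamp loader subunit Rfc2 (-0.66). The count was 19 without BALB/c iNKT17 replicate 2 (6.69% of all genes), 14 without BALB/c ROR- replicate 1 (6.51%), and 2 without either γδ17 array (4.21%). It was 0 when BALB/c iNKT17 replicate 1 or replicate 2 of B6 iNKT17 or B6 ROR- was left out, and 1 when BALB/c iNKT17 replicate 3 or ROR- replicate 2 or 3 of BALB/c was. Of 46 other mitotic genes tested of 52, 17 fell, beside the same 2.79%, and all 46 had the lower mean (median -1.34). The phosphatase Cdkn3 (-2.36), the centromere gene Cenpk (-2.35), the centriole gene Stil (-2.24) and the condensin subunit Ncaph (-2.08) had the largest of these. The count of 17 was 43 without BALB/c iNKT17 replicate 2 (6.69% of all genes) and 38 without BALB/c ROR- replicate 1 (6.51%). It was 0 when replicate 2 of B6 iNKT17 or B6 ROR- was left out, 2 when iNKT17 replicate 1 or 3 or ROR- replicate 2 of BALB/c was, 3 without BALB/c ROR- replicate 3, 8 without either γδ17 array and 7 without B6 iNKT17 replicate 1. In iNKT17 alone 1 of 46, the motor Kifc1, fell (-1.22; adjusted p = 0.0484 by limma), a share near the 1.48% of all genes called there. That count was 35 without BALB/c iNKT17 replicate 2 (3.18% of all genes), 1 without B6 iNKT17 replicate 1 or BALB/c ROR- replicate 3, and 0 without any other single array.

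The regulators of G1, which decide entry into the cycle, and the brakes, genes known to hold T cells at rest or to slow division, were counted the same way. Of 13 G1 regulators, Mycn (1.29) and E2f3 (0.53) rose and Myc (-1.83) and Rb1 (-0.34) fell in iNKT17 against ROR- cells, averaged over the strains, where 12.3% of all genes passed. Myc and Mycn passed in every omission of 1 array, and the count of 4 became 2 without B6 ROR- replicate 1 or B6 iNKT17 replicate 2. In γδ17 against B6 ROR- cells Mycn rose (1.34), and Myc (-1.92) and Ccnd2 (-0.91), cyclin D2, fell, where 6.02% of all genes passed. Of 26 brakes tested of 30, the quiescence factor Klf2 (-1.75), Tob1 (-1.07) and Mxi1 (-0.70) fell in iNKT17 against ROR-, and Tob1 (-1.51), Btg1 (-1.11), Mxi1 (-1.01) and Mxd4 (-0.92) in γδ17 against ROR-. Those 3 of 26 are a share no larger than the 12.3% of all genes, and the 4 of 26 in γδ17 stand beside 6.02%. The iNKT17 count of 3 became 5 when replicate 1 of either BALB/c group was left out and 1 without B6 iNKT17 replicate 2. The γδ17 count of 4 became 0 without γδ17 replicate 1, B6 ROR- replicate 1 or B6 ROR- replicate 2, and 2 without BALB/c iNKT17 replicate 1 or 3. In the strain mean Rbl2 (0.74), a pocket protein that holds E2F genes silent, and Mxi1 (0.66) rose in BALB/c, and E2f7 (-1.38) and Cdkn2c (-0.83) fell, 4 of 26 beside 4.58% of all genes. The count of 4 became 1 when iNKT17 replicate 1 or 3 of BALB/c, ROR- replicate 2 or 3 of BALB/c, or replicate 2 of B6 iNKT17 or B6 ROR- was left out, and 7 brakes passed without BALB/c iNKT17 replicate 2.

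The genes most like the members outside these lists were ranked by Pearson's r between their deviations from group means and the members' mean deviation, over 12 arrays. The first 10 were Cep55, Trip13, Brip1, Kif14, Gm6340, Spag5, Spdl1, Kif20b, Diaph3 and Ska3, with r from 0.991 down to 0.986. Cep55, which acts when daughter cells separate, was first. These ranks describe the arrays, and the points share them.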

How the data were processed

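RNA of 12 samples in 5 groups was measured on 1 array each. The authors deposited log2 probe-set levels; the R package oligo is named per the submitters' processing notes, with its version, background, normalization and summary steps not given in the sources used here. As no label names the logarithm's base, log2 was read from the range of the values, and every difference rests on that. Array medians lay between 4.10 and 4.30, and depth does not apply to arrays, whose number limits the precision.

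Of 41345 probe sets, 23521 have 1 gene symbol in the platform annotation, 1814 several and 16010 none listed, and gene IDs of 23328 matched RefSeq. The brightest probe set by its mean stood for a gene. Genes above 3.45 (the 30th percentile) on at least 2 arrays were tested, 16667 of 22180. Limma 3.58.1 in R 4.3.3 fitted the 5 group means over 12 arrays (7 residual degrees of freedom), with Benjamini-Hochberg adjustment over all genes tested. The fit was tried on simulated data with independent noise for each gene and an added cell type difference. That trial does not bear on the members' shared spread or on the strain comparisons. Groups came from the labels. The replicate numbers were not used as a block, since the labels do not say that they pair samples. Of 21 pairs of arrays with the same number in different groups, 4 had deviations correlated above 0.1 (range -0.286 to 0.305). Many of these pairs join a BALB/c to a B6 array, so that count does not decide whether numbers pair arrays within a strain. In B6 ROR- and in B6 iNKT17 all 58 members read higher on replicate 2.

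Named members are those past the threshold in a comparison, 18 anchor genes, the 2 highest and 2 lowest in each comparison, and the 3 with the largest and smallest spread. Of the other lists up to 4 genes past the threshold were to be named; where a list had 5, all are named. Levels of different probe sets cannot be set against each other, so the part of the rule that ranked members by level was dropped. Other members named were chosen after their values were seen. The members and lists were chosen with earlier results of these data known, and the mean strain comparison and the alternatives for the spread and the other lists were added after values were seen. The alternatives were 2 other filters, 2 scalings, the mean of a gene's probe sets, another eBayes setting, array weights, a replicate block, only the groups compared, and each array left out.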

Additional observations from a re-analysis of the deposited data

How the results depend on the processing

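The members' direction between strains held under all 21 settings, in iNKT17 and in the strain mean for 58 of 58 and in ROR- cells for 57 to 58. Some of the settings could not change it. The filters on dim genes, the eBayes setting and omission of an array outside the compared groups leave a difference unchanged. The members also varied together within groups, so their agreement is not that of independent readings. The counts of calls did not hold. For the strain mean the 18 calls became 11 with no filter on dim genes (3.22% of all genes) and 1 with trended robust eBayes (4.07%). They became 44 with array weights (6.95%) and 10 with only the groups compared (4.21%). Leaving out 1 array gave 0 to 54 (6.69% at 54). For the iNKT17 strain comparison the 0 calls became 13 with array weights (3.29% of all genes). Leaving out 1 array there gave 0 to 36 (3.18% of all genes at 36). In ROR- it gave 0 to 1, and the 1 of 58 is near the 1.55% of all genes called in that fit. For iNKT17 against ROR- cells over both strains, leaving out 1 array gave 0 to 2 (10.1% and 12.3% of all genes at 2). With the replicate number as a block, a pairing that the labels do not give, the strain mean had 0 calls (2.23% of all genes). The mean cell type comparison then had 1 (11.9%), and the counts of members in the other comparisons stayed at 0. Whether the block is a true pairing was not decided. The difference in iNKT17 ranged from -2.11 to -1.07 for the S phase mean and from -2.85 to -1.52 for the mitotic mean, and the median residual SD from 0.741 to 0.970. Of the values of 91 named member differences under the alternatives, 1647 kept direction and side of the threshold, 192 lost and 41 gained a call, and 31 changed sign, all of differences that had not passed. With array weights Pcna turned to -0.013 in the mean cell type comparison and, in the interaction, Cdk1 to -0.27 and Prr11 to -0.37. Tyms turned to 0.087 in iNKT17 against γδ17 with centred arrays. Leaving out 1 array also turned signs. In the mean cell type comparison this gave -0.35 to 0.070 for Ccne1 and -0.053 to 0.18 for Pcna, and for Pcna -0.24 to 0.13 in BALB/c. In B6 it gave -0.20 to 0.64 for Ccne1 and -0.033 to 0.43 for Pcna. In the interaction it gave -0.71 to 0.88 for Cdk1 and -0.92 to 1.05 for Prr11. In iNKT17 against γδ17 it gave -0.18 to 0.36 for Ccnb2 and -0.28 to 0.22 for Tyms, and in γδ17 against ROR- -0.39 to 0.17 for Ccne1 and -0.49 to 0.43 for Cdca5. The cause was not tested. Groups of 2 or 3 arrays limit the precision: the median SE of a member's strain difference in iNKT17 was 0.65 log2 units.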
